A study of Mus musculus with 18 samples.

Results

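Hepatocytes and Kupffer-like cells taken from mouse livers with a ligated bile duct were compared gene by gene. Bile duct ligation (BDL) closes the main bile duct, so that bile is retained in the liver, and sham surgery opens the abdomen without closing the duct. The groups were primary hepatocytes (labelled MPH) and Kupffer-like cells of ligated mice, with 3 libraries each, and the same 2 cell types of sham-operated mice, also with 3 libraries each. The labels name no genotype or transgene for any group, and the strain, age, sex, time after surgery and method of cell isolation do not appear in the labels or series text. The libraries of ligated liver are called MPH 1 to 3 and Kupffer 1 to 3 here, in the order of the numbers in their titles, and MPH 2 and Kupffer 1 carry the same number. Poly(A) RNA was sequenced, and the deposited values are fragments scaled to transcript length and to a size of the library (FPKM). Genes entered the comparison when 3 or more of the 6 libraries held them at 1 FPKM or above, which held for 12525 of the 54532 genes in the table. Nothing in the sources says that the libraries came from separate animals, and the p-values therefore speak only of library-to-library spread.

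Hepatocytes make the plasma proteins, bile acids, urea and glucose that the liver exports, and they take bile acids up from the blood and pump them into bile. Kupffer cells are the resident macrophages of the liver sinusoids, which clear particles, bacteria and old red cells and release cytokines when pattern receptors are engaged. In a ligated liver, monocytes and neutrophils enter beside the resident macrophages, and a macrophage preparation can hold any of them.

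The marker genes separated the groups on one side only. All 16 hepatocyte markers passed the test toward MPH, as did 13.1% of all genes tested, with a summed level of 72342 to 138440 FPKM against 1622 to 6054 FPKM in the Kupffer-like libraries. Their median level was 1.67% of the MPH mean in Kupffer 1, 6.25% in Kupffer 2 and 3.70% in Kupffer 3. None of the 12 Kupffer cell markers passed the test by limma or reached an unadjusted p under 0.05 (0 of 12), and their groups overlapped for all 12. Without Kupffer 3, 4 of the 12 passed toward Kupffer-like cells. They summed to 2996 FPKM in MPH 1, 4008 in MPH 2 and 1089 in MPH 3, against 10498 in Kupffer 1, 7277 in Kupffer 2 and 1901 in Kupffer 3. The median marker therefore stood at 48.4% of the Kupffer mean in MPH 1, at 63.5% in MPH 2 and at 17.6% in MPH 3. Clec4f, the lectin that defines mouse Kupffer cells, was at 669, 587 and 218 FPKM in MPH 1 to 3 and at 1705, 1213 and 295 FPKM in Kupffer 1 to 3. No Kupffer cell marker was listed at 0 in any of the 6 libraries.

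Of the 6 libraries, 3 stood apart. Kupffer 3 held Kupffer cell markers at a median of 20.2% of the mean of Kupffer 1 and 2, together with the most globin mRNA (Hba-a1, 10405 FPKM) and the most T cell, B cell and neutrophil markers. MPH 3 held the fewest Kupffer cell markers of the MPH libraries and far more Cyp4a14, a fatty acid hydroxylase, than the others (1909 FPKM against 16.8 in MPH 1 and 37.0 in MPH 2). In Kupffer 2, mitochondrially encoded transcripts took 17.1% of the summed FPKM, and hepatocyte markers were the highest of the Kupffer-like libraries. Sex also differed within the groups: MPH 1, MPH 2 and Kupffer 1 held Y-linked transcripts, and MPH 3, Kupffer 2 and Kupffer 3 held Xist. Reads in genes, recovered from the FPKM steps, ran from 15788617 to 17894483 per library. Each count below is followed by its lowest and highest value when each library was left out in turn, and counts without Kupffer 3 and MPH 3 together, where the filter asks for 3 of the 4 libraries left, are given where a count of 2 or more moved by more than 1.5 times. In bulk libraries, fewer cells of a type and less RNA per cell cannot be told apart.

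**Figure D1:**
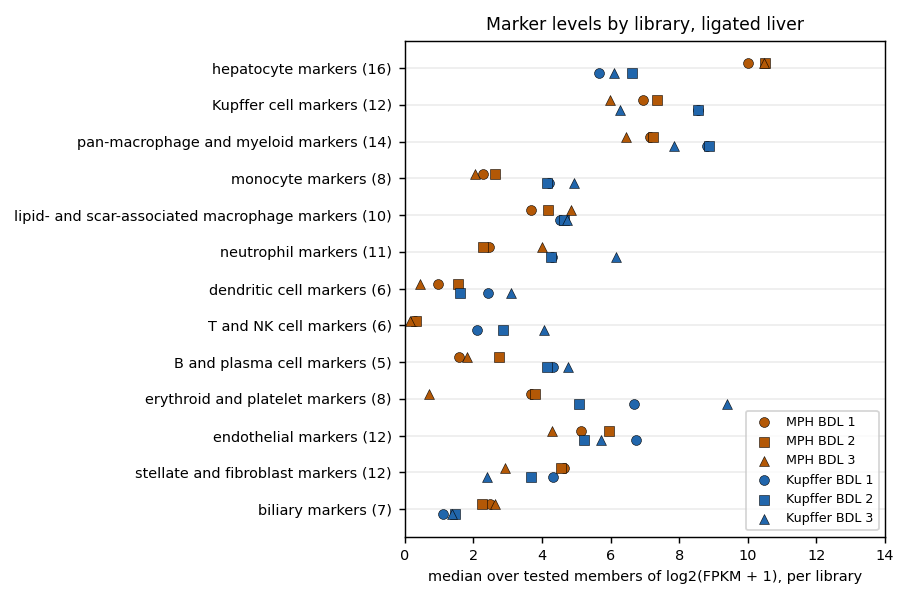
Median log2(FPKM + 1) of each of 13 marker lists in each of the 6 libraries of ligated liver, with 1 point per library and colour for cell type. Hepatocyte markers separate the groups widely, whereas Kupffer cell markers overlap, with MPH 3 and Kupffer 3 lowest in their groups.

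Across all genes, 1647 of 12525 (13.1%) were higher in MPH and 1072 (8.56%) were higher in Kupffer-like cells at an adjusted p under 0.05 (limma, Benjamini-Hochberg). With a log2 difference of at least 2 as a further condition, 616 (4.92%) remained on the MPH side and 156 (1.25%) on the Kupffer-like side. The groups did not overlap for 3088 genes (24.7%) toward MPH and for 2522 (20.1%) toward Kupffer-like cells. Differences are MPH minus Kupffer-like on the scale of log2(FPKM + 1), and their median over all genes was 0.00. A gene that is low in one cell type passes the filter on level only through the other, so a count over tested members of a marker list is a description and no support for the direction.

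The split depended on scaling. The library size implied by the deposited values was 0.60 to 0.73 of the recovered reads in genes in MPH. In Kupffer-like libraries it was 0.93 to 1.19 of them, so the values were not scaled to plain read totals. The deposited FPKM sums were 510913 to 673328 in MPH and 286616 to 399850 in Kupffer-like libraries, and the 10 most abundant genes took 24.7% to 30.5% of the sum in MPH and 12.3% to 20% in Kupffer-like libraries. Of the called genes, 60.6% were higher in MPH as deposited, 48.4% after quantile normalization (1380 against 1474), 17.9% after scaling to recovered reads (828 against 3805) and 14.4% after scaling to a common sum (734 against 4371). These scalings moved the median of all genes to -0.09, -0.49 and -0.59. Each shift was toward Kupffer-like cells, so positive differences smaller than it have no fixed direction. Below, this holds for Il6st and Osmr, which did not pass. The size of small negative differences depends on scaling too, as for Mst1r and Il6ra, which did not pass, and the called Flvcr1 (-0.74). Leaving out 1 library gave 708 genes (without MPH 2) to 1801 genes (without Kupffer 3) toward MPH and 317 (without Kupffer 2) to 1164 (without Kupffer 3) toward Kupffer-like cells. Leaving out MPH 1 gave 771 and 435, MPH 3 gave 1042 and 606, and Kupffer 1 gave 874 and 440.

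**Figure D2:**
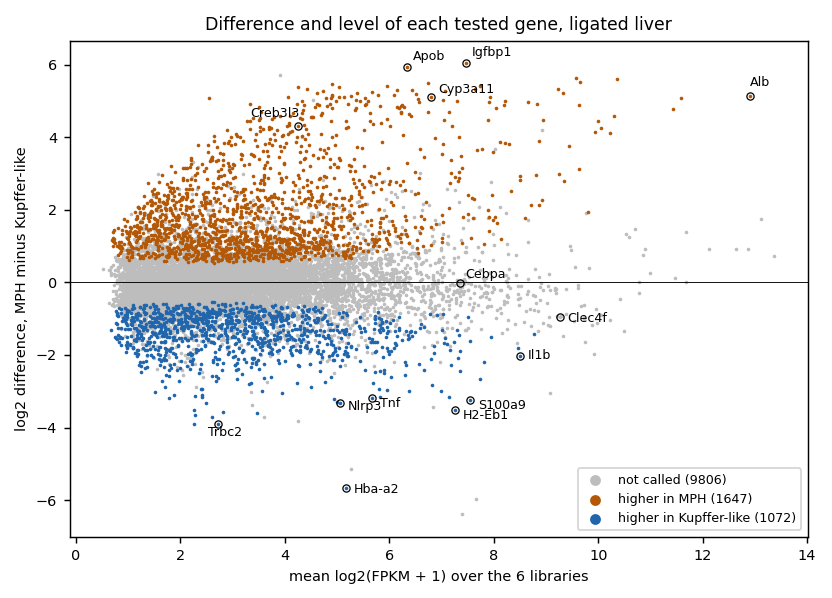
Each of the 12525 genes by its mean level, log2(FPKM + 1), and its log2 difference, MPH minus Kupffer-like, with genes that passed the test in colour. Called differences of a log2 of 2 or more number 616 on the MPH side and 156 on the Kupffer-like side, where globin genes lie farthest out.

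The 12 genes with the largest differences on the MPH side coded mainly for secreted proteins and carriers. Igfbp1, a secreted binding protein of insulin-like growth factors, was at 464, 908 and 7193 FPKM in MPH 1 to 3 and at 11.6, 75.2 and 9.95 FPKM in Kupffer 1 to 3. The groups were far apart, with MPH 3 the highest, and the log2 difference was 6.05 (SE 1.18, adjusted p = 0.016). The call was lost without Kupffer 1 (adjusted p = 0.059). Apob, the structural protein of very low density lipoprotein, was at 679, 505 and 755 FPKM against 2.92, 30.4 and 8.04 FPKM, a log2 difference of 5.94 (SE 0.72, adjusted p = 0.0043). Kupffer 2 was the highest of its group for Apob and for Igfbp1, yet below every MPH library.

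Both the alpha and gamma chains of fibrinogen were among the 12. Fga, the alpha chain, was at 3225, 4838 and 9847 FPKM in MPH and at 51.4, 637 and 37.0 FPKM in Kupffer-like cells, a log2 difference of 5.63 (SE 1.11, adjusted p = 0.017). The Fga call was lost without MPH 2 or MPH 3 (adjusted p = 0.054 each) and without Kupffer 1 (0.060). Fgg, the gamma chain, differed by 5.54 (adjusted p = 0.014) and lost its call without Kupffer 1 (0.053). Other members of the 12 had tighter groups. Agt, the angiotensin precursor, was at 721, 694 and 720 FPKM against 10.9, 27.9 and 10.6 FPKM, a log2 difference of 5.49 (SE 0.40, adjusted p = 0.0011). Gjb2, the gap junction protein connexin 26, was at 148, 170 and 314 FPKM against 2.08, 5.14 and 3.80 FPKM (5.48, SE 0.38, adjusted p = 0.0011).

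Apoa1, the main protein of high density lipoprotein, differed by 5.62, Kng1, the kininogen precursor, by 5.42, and Slc38a4, an amino acid carrier, by 5.41. Ces1d, a carboxylesterase, differed by 5.39, Igfbp2, a second binding protein of insulin-like growth factors, by 5.38, and Ugt3a2, a sugar-conjugating enzyme, by 5.34. All 6 kept their call with each library left out. Albumin, outside the 12 and named for comparison after its values were seen, was at 32219, 39277 and 75553 FPKM for Alb in MPH and at 613, 2112 and 1623 FPKM in Kupffer-like cells (5.16, SE 0.68, adjusted p = 0.0052).

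The 12 genes with the largest differences on the Kupffer-like side were mixed in cell type. 6 of them are genes that T or NK cells express: Gzma and Gzmb (granzymes), Trbc1 and Trbc2 (constant parts of the T cell receptor), Il2rb (interleukin 2 receptor beta) and Ccl5 (a chemokine). Ccl5 was listed here with cytokines and chemokines and not as a T or NK cell marker, and its cell of origin was not tested. Trbc2 was at 1.04, 0.932 and 0.269 FPKM in MPH and at 15.1, 20.5 and 46.3 FPKM in Kupffer-like cells, a log2 difference of -3.89 (SE 0.42, adjusted p = 0.0031). Kupffer 3 was the highest, and the groups were separate in all 6 libraries. Gzma differed by -3.90, Gzmb by -3.71, Ccl5 by -3.57, Trbc1 by -3.51 and Il2rb by -3.31. Ighm, the constant part of IgM and a B cell gene, was at 11.9, 13.0 and 4.89 FPKM against 64.6, 76.4 and 195 FPKM (-3.29, SE 0.52, adjusted p = 0.0087). Gzma, Gzmb and Trbc1 did not reach the filter when a Kupffer-like library was left out, and the Gzmb call was also lost without MPH 3 (adjusted p = 0.050). Without Kupffer 3 and MPH 3 together, only 2 of the 6 T and NK cell markers that had passed the filter were still tested, and both were higher in Kupffer-like cells.

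The other 5 were a globin, a class II gene and 3 genes of activated myeloid cells. Hba-a2, an alpha globin of red cells, was at 10.5, 10.3 and 0 FPKM in MPH and at 263, 33.6 and 1835 FPKM in Kupffer-like cells (-5.66, SE 1.58, adjusted p = 0.047). Its reads cannot be separated surely from the near-identical Hba-a1, and its call was kept only without Kupffer 2 (adjusted p 0.073 to 0.12 in the other 5 fits). Nlrp3, the sensor of the NLRP3 inflammasome, was at 14.4, 8.59 and 6.73 FPKM against 69.0, 156 and 104 FPKM, a log2 difference of -3.32 (SE 0.39, adjusted p = 0.0037). Acod1, the enzyme that makes itaconate in activated macrophages, was at 1.46, 4.52 and 1.39 FPKM against 28.4, 23.1 and 78.6 FPKM (-3.59, SE 0.54, adjusted p = 0.0075). Both groups were separate for Nlrp3 and Acod1, and both calls were kept with each library left out.

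S100a9, a calcium-binding protein abundant in neutrophils and monocytes, was at 50.1, 41.2 and 103 FPKM in MPH and at 413, 393 and 1169 FPKM in Kupffer-like cells (-3.24, SE 0.56, adjusted p = 0.011). Kupffer 3 was the highest for S100a9, and the call was kept with each library left out. H2-Eb1, a class II antigen-presenting chain, was at 87.9, 119 and 7.55 FPKM in MPH and at 497, 646 and 424 FPKM in Kupffer-like cells (-3.52, SE 0.97, adjusted p = 0.046). Its call was kept only without MPH 3 (adjusted p 0.053 to 0.13 in the other 5 fits).

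Promoters of both sets of genes were read for short motifs of liver and myeloid factors, as a description with no test. The levels of such factors are given below, and a link between them and the motifs was not tested. Promoters were the 250 bases before and 50 bases after each start site in RefSeq on GRCm38.p6, of which 11562 belonged to 9059 of the genes tested. The HNF1 motif, GTTAAT on either strand, was in 4.80% of all these promoters, in 13.1% of the promoters of genes higher in MPH by a log2 of at least 2 (76 of 579) and in 3.64% of those higher in Kupffer-like cells by as much (4 of 110). The PU.1 motif, GAGGAAGT on either strand, was in 3.29% of all promoters, in 1.38% on the MPH side (8 of 579) and in 10.9% on the Kupffer-like side (12 of 110). The HNF4A motif, CAAAGTCCA on either strand, was in 0.588% of all, 2.07% on the MPH side and 1.82% on the Kupffer-like side. The C/EBP motif, TTGCGCAA, was in 0.285% of all, 0.345% on the MPH side and none of the 110 on the Kupffer-like side. The promoters of 1 gene overlap where it has several start sites, and a match is a run of letters, not a shown binding site.

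The stretches below carry such matches upstream of genes described here, and each is written 5′ to 3′ along the strand of the gene. Capitals mark the motif. ATTAAC is the HNF1 motif read on the opposite strand.
Alb, chr5:90460811-90460869, plus strand, motif 26 bases before the start site: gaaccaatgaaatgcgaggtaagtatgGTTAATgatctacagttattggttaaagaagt
Fga, chr3:83026083-83026142, plus strand, 37 bases before the start site: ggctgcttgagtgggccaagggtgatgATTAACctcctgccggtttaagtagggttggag
Igfbp1, chr11:7197704-7197763, plus strand, 50 bases before the start site: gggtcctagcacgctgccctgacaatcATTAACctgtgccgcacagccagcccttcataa
Nr1h4, chr10:89506666-89506725, minus strand, 34 bases before the start site: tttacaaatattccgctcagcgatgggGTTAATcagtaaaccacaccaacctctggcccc
The HNF4A motif stood in the promoters of 2 cytochrome P450 genes of the MPH side.
Cyp3a11, chr5:145879928-145879990, minus strand, 100 bases before the start site: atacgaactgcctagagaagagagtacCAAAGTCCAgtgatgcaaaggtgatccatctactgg
Cyp2c70, chr19:40187315-40187377, minus strand, 55 bases before the start site: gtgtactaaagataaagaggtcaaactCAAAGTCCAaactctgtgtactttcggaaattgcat

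The PU.1 motif is shown in 4 genes called higher in Kupffer-like cells, of which only S100a8 differed by a log2 of 2 or more and can be among the 12 of 110. It also stood in promoters of genes higher in MPH, such as Foxa2 and Fbp1. ACTTCCTC is the motif read on the opposite strand.
Aim2, chr1:173420464-173420525, plus strand, motif 105 bases before the start site: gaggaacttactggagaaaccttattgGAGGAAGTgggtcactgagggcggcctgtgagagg
S100a8, chr3:90668872-90668933, plus strand, 164 bases before the start site: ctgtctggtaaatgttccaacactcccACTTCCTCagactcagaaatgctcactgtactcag
Pycard, chr7:127993877-127993938, minus strand, 36 bases before the start site: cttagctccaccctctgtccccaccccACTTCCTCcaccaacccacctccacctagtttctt
Tlr1, chr5:64933559-64933608, minus strand, 15 bases before the start site: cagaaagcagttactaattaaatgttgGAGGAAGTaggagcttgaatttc
Another start site of Tlr1 has a match to the HNF1 motif, so the same gene can hold motifs of both kinds.

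Of the 16 hepatocyte transcription factors, 14 were higher in MPH (7 to 14 with each library left out) and none was higher in Kupffer-like cells, with a median log2 difference of 2.03 against 0.00 over all genes. Of the 10 still tested without Kupffer 3 and MPH 3, 9 were higher in MPH. Creb3l3, a membrane-bound factor of lipid and acute phase genes, was at 59.2, 73.0 and 134 FPKM in MPH and at 2.38, 4.99 and 2.81 FPKM in Kupffer-like cells (4.31, SE 0.37, adjusted p = 0.0016). Hnf4a, the nuclear receptor that defines the hepatocyte, was at 140, 192 and 240 FPKM against 16.6, 11.1 and 41.3 FPKM (3.17, SE 0.49, adjusted p = 0.0082). Kupffer 3 had the most Hnf4a of its group, and the groups did not overlap. Prox1 differed by 2.97, Foxa3 by 2.36, Foxa2 by 2.01 and Nr5a2 by 1.42, and all 4 calls were kept with each library left out. The 2 that did not pass were Cebpa, which myeloid cells also use, at 198, 179 and 117 FPKM against 164, 268 and 99.0 FPKM (-0.02, adjusted p = 0.97), and Nr0b2.

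Of the 15 macrophage factors, 6 were higher in Kupffer-like cells (2 to 7) and none in MPH, with a median of -0.91. Irf8, needed for monocytes and macrophages, was at 13.2, 13.8 and 6.76 FPKM in MPH and at 34.2, 34.1 and 33.8 FPKM in Kupffer-like cells (-1.57, SE 0.28, adjusted p = 0.012). Irf5, which drives inflammatory cytokine genes, was at 24.3, 23.5 and 18.1 FPKM against 55.4, 59.9 and 54.2 FPKM (-1.33, SE 0.20, adjusted p = 0.0077). The Irf8 and Irf5 groups were separate, and both calls were kept with each library left out. Spi1, which codes for PU.1, differed by -1.44 (adjusted p = 0.016) and lost its call without MPH 1, Kupffer 1 or Kupffer 2 (0.056 to 0.061). Factors of resident Kupffer cells did not pass: Spic was at 9.02, 21.5 and 3.49 FPKM against 70.4, 44.9 and 10.5 FPKM (adjusted p = 0.17), Id3 had an adjusted p of 0.51 and Nr1h3 of 0.29.

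Most tested genes of bile acid synthesis and transport were higher in MPH. Of 16 genes of bile acid synthesis and conjugation, 14 passed the filter on level and 11 were higher in MPH (7 to 11; median 2.31). With Kupffer 3 and MPH 3 both left out, 14 were higher in MPH. Slc27a5, which activates bile acids for conjugation, was at 371, 307 and 179 FPKM in MPH and at 3.27, 21.9 and 5.30 FPKM in Kupffer-like cells (5.01, SE 0.64, adjusted p = 0.0049). Slc27a2, a very long chain acyl-CoA synthetase, differed by 5.17, Cyp2c70, which makes muricholic acids, by 4.70 and Cyp39a1, an oxysterol hydroxylase, by 4.11. All 4 calls were kept with each library left out. Cyp7a1, the rate-limiting enzyme of bile acid synthesis, did not reach the filter. It was at 63.8, 7.28 and 0 FPKM in MPH and at 0.0838, 0.917 and 0.998 FPKM in Kupffer-like cells and the MPH libraries themselves therefore ranged from 0 to 63.8 FPKM.

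Of 16 bile acid and organic ion carriers, 13 passed the filter and 11 were higher in MPH (8 to 10; median 3.52). Slc10a1, the sodium-dependent importer of bile acids, was at 127, 144 and 188 FPKM in MPH and at 1.51, 10.3 and 4.06 FPKM in Kupffer-like cells (4.86, SE 0.53, adjusted p = 0.0031). Abcb11, the bile salt export pump, was at 147, 49.1 and 25.8 FPKM against 0.725, 2.64 and 3.39 FPKM (4.27, SE 0.66, adjusted p = 0.0082). The groups were separate for both, with MPH 3 the highest for the importer and the lowest of MPH for the pump. Slco1b2, a sodium-independent importer, differed by 4.40 and Abcc2, the canalicular exporter of conjugates, by 4.22. The basolateral exporters did not pass: Abcc3 was at 133, 104 and 84.4 FPKM against 76.7, 76.4 and 34.2 FPKM (0.83, adjusted p = 0.16), and Abcc4 at 4.70, 6.22 and 3.18 FPKM against 9.60, 6.86 and 6.31 FPKM (-0.61, adjusted p = 0.14). These exporters were named after their values were seen.

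Of 10 genes of bile acid sensing and feedback, 8 passed the filter and 5 were higher in MPH (2 to 5; median 2.09). Nr1h4, which codes for the bile acid receptor FXR and whose promoter stretch is shown above, was at 46.8, 60.2 and 68.9 FPKM in MPH and at 5.14, 6.24 and 13.4 FPKM in Kupffer-like cells (2.77, SE 0.36, adjusted p = 0.0050). Fgfr4, the receptor of the gut hormone FGF15, was at 22.9, 13.0 and 6.71 FPKM against 0.198, 1.02 and 0.392 FPKM (3.19, SE 0.43, adjusted p = 0.0057), and its partner Klb differed by 2.19. Nr1i3 differed by 1.49, and Nr1i2, the pregnane X receptor, by 2.28 (adjusted p = 0.048), a call kept only without Kupffer 3. Nr0b2, the repressor that FXR induces, was at 25.8, 15.5 and 2.80 FPKM against 1.60, 1.54 and 3.02 FPKM (1.99, adjusted p = 0.084). MPH 3 lay below Kupffer 3 for Nr0b2, which passed only without MPH 3 (adjusted p = 0.011). Gpbar1, the membrane bile acid receptor TGR5, did not reach the filter and stayed under 1 FPKM in all 6 libraries.

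Drug-metabolizing enzymes were higher in MPH for 12 of the 17 that passed the filter, of 18 listed (9 to 15; median 4.03). Cyp2c29 differed by 5.22, Cyp3a13 by 5.15, Cyp3a11 by 5.13 and Cyp2d10 by 4.93, and the 4 calls were kept with each library left out. Cyp3a11, the main CYP3A enzyme of mouse liver, was at 820, 848 and 401 FPKM in MPH and at 9.87, 27.1 and 20.4 FPKM in Kupffer-like cells. The urea cycle had 8 of 10 genes higher in MPH (3 to 8; median 2.24). This count was 5 after scaling to recovered reads, 4 after scaling to a common sum and 5 after quantile normalization. Cps1, its first enzyme, was at 1009, 962 and 738 FPKM against 11.6, 48.2 and 33.8 FPKM (5.01, SE 0.52, adjusted p = 0.0027). Ass1 was at 1043, 1167 and 846 FPKM against 99.1, 44.2 and 493 FPKM (2.95, adjusted p = 0.049), and Kupffer 3 was far above the other Kupffer-like libraries. Its call was kept only without Kupffer 3 (adjusted p 0.10 to 0.13 in the other 5 fits).

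Gluconeogenesis and amino acid breakdown had 9 of 14 genes higher in MPH (7 to 12; median 2.64). G6pc, which releases free glucose, was at 140, 152 and 122 FPKM in MPH and at 1.57, 10.4 and 2.35 FPKM in Kupffer-like cells (4.91, SE 0.54, adjusted p = 0.0032). Gpt, an alanine aminotransferase, differed by 3.68, Aass, which breaks down lysine, by 3.20 and Tat, which breaks down tyrosine, by 2.98. The G6pc, Gpt, Aass and Tat groups did not overlap.

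Lipoprotein genes were higher in MPH for 13 of the 21 that passed the filter, of 22 listed (12 to 14; median 3.82), led by Apob and Apoa1. Apoa5, a cofactor of triglyceride clearance, differed by 5.32 and Apoh by 4.99. Apoe, which macrophages also make, was at 10609, 9997 and 9992 FPKM in MPH and at 8872, 9810 and 1826 FPKM in Kupffer-like cells (0.91, SE 0.76, adjusted p = 0.42). Kupffer 3 alone was low, and the sign of the Apoe difference depended on the setting (-0.81 to 1.34 over 18 alternatives). Cholesterol synthesis had 10 of 19 tested genes higher in MPH (7 to 12; median 1.27).

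Fatty acid oxidation had 12 of 18 tested genes higher in MPH, but this count moved widely with the libraries (2 to 14; median 1.66). It was 2 without Kupffer 1 or Kupffer 2, 3 without MPH 1 or MPH 2, 6 without MPH 3 and 14 without Kupffer 3. The count also fell with scaling, to 6 for recovered reads, 4 for a common sum and 5 for quantile normalization. The list median stayed positive in these settings (1.06, 0.94 and 1.32). Acadvl, which starts the oxidation of long acyl chains, was at 55.3, 54.9 and 104 FPKM against 13.1, 14.0 and 22.9 FPKM (2.01, SE 0.34, adjusted p = 0.011), a call kept with each library left out. Lipogenesis had 6 of 14 tested genes higher in MPH (3 to 8; median 1.8), among them Mlxipl, a glucose-responsive factor (3.37), and Dgat2, the last step of triglyceride synthesis (3.19).

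Plasma protein genes were mostly higher in MPH. Of 21 coagulation and fibrinolysis genes, 15 were higher in MPH (12 to 15) and 3 in Kupffer-like cells (2 to 3), with a median of 4.36. Serpind1, heparin cofactor II, differed by 5.13 and was at 290, 209 and 117 FPKM against 2.47, 7.33 and 4.83 FPKM (SE 0.44, adjusted p = 0.0016). The 3 on the Kupffer-like side were the urokinase gene Plau (-2.34, adjusted p = 0.012), its receptor Plaur (-2.14, 0.017; lost without MPH 2, 0.058) and F13a1, the A subunit of factor XIII (-1.67, 0.0083). F13a1 was at 4.08, 2.58 and 4.58 FPKM in MPH and at 10.4, 14.5 and 17.6 FPKM in Kupffer-like cells, so that the groups were separate.

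Of 28 complement genes listed, 27 were matched by symbol, 26 passed the filter, 10 were higher in MPH (8 to 10) and 2 in Kupffer-like cells (1 to 8), the latter no larger a share than the 8.56% of all genes. Without Kupffer 3 and MPH 3 these counts were 12 and 10. C3, the central component, was at 7007, 5165 and 3445 FPKM in MPH and at 161, 426 and 337 FPKM in Kupffer-like cells (4.13, SE 0.52, adjusted p = 0.0045). Cfi, a protease that inactivates C3b, differed by 5.20, Mbl2, a mannose-binding lectin, by 5.09 and C8b by 4.75. The 2 on the Kupffer-like side were the C5a receptor C5ar1, at 18.8, 17.9 and 22.6 FPKM against 60.4, 72.2 and 63.4 FPKM (-1.68, SE 0.20, adjusted p = 0.0038), and Itgb2, the beta chain of complement receptor 3 (-1.70, adjusted p = 0.013; lost without MPH 1, 0.052). C1qa, a subunit of the macrophage-made C1q, was at 763, 1040 and 404 FPKM against 3530, 2281 and 399 FPKM (-1.11, adjusted p = 0.39) and was named after its values were seen.

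Of 24 acute phase proteins, 18 were higher in MPH (14 to 20; median 4.23). Orm2, an acid glycoprotein, was at 1768, 1596 and 1048 FPKM in MPH and at 29.8, 50.3 and 44.1 FPKM in Kupffer-like cells (5.12, SE 0.35, adjusted p = 0.0011). Of 19 iron and heme genes tested, 6 were higher in MPH (6 in every leave-out). Only 2 were higher in Kupffer-like cells (0 to 5, and 0 in 4 of the 6 leave-outs), close to the 8.56% of all genes, and 5 without Kupffer 3 and MPH 3 together. Hamp, the iron hormone hepcidin, was at 3078, 3901 and 5765 FPKM against 135, 381 and 239 FPKM (4.15, SE 0.50, adjusted p = 0.0041), Tfr2 differed by 5.08, Hpx by 5.08 and Hp by 4.79. Slc11a1, a phagosomal metal carrier, differed by -1.35 (adjusted p = 0.029) and Flvcr1, a heme and choline carrier, by -0.74 (0.029). The Slc11a1 call was kept only without Kupffer 3, and that of Flvcr1 was lost without MPH 1, MPH 2, Kupffer 1 or Kupffer 2 (0.075 to 0.11).

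**Figure D3:**
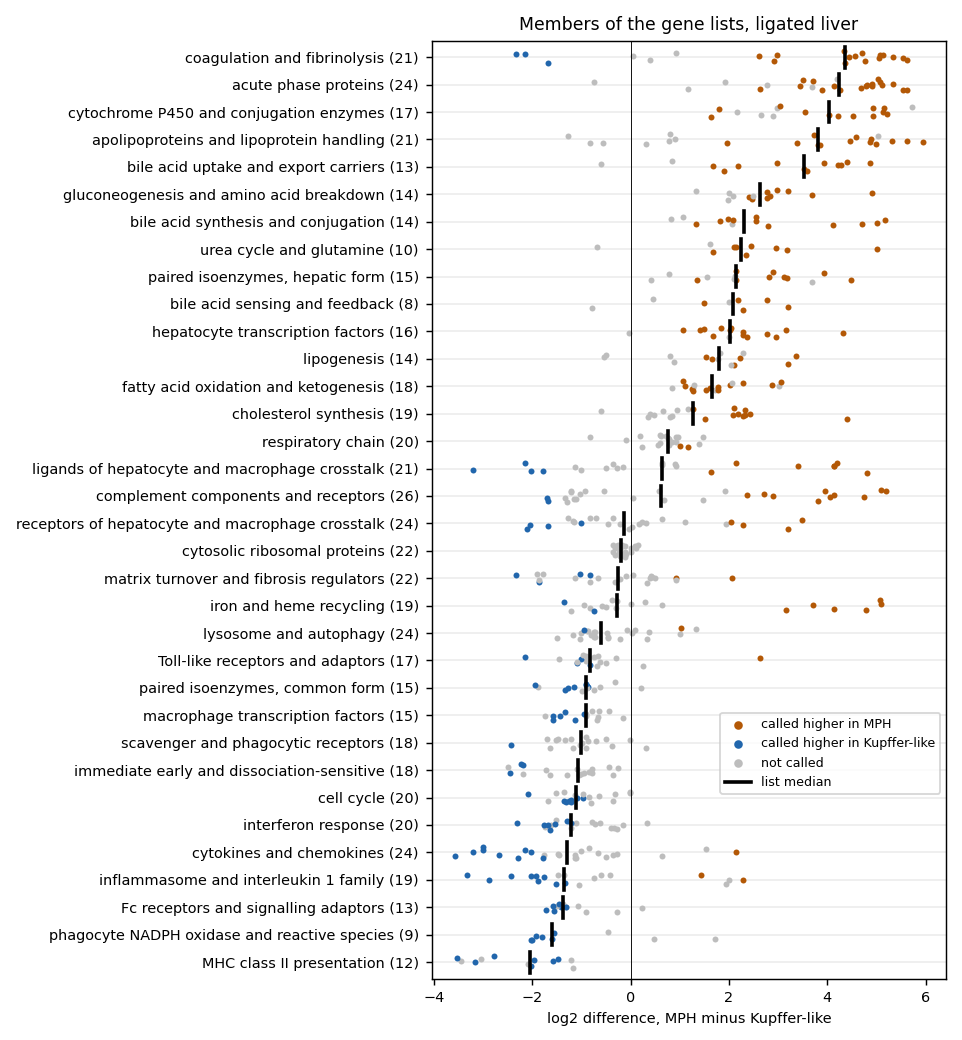
Log2 difference, MPH minus Kupffer-like, of every tested member of 34 functional gene lists, with 1 point per gene, colour for the call and a bar at the list median. Hepatocyte lists lie to the right and leukocyte lists to the left, while complement, iron and crosstalk genes spread over both sides.

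Among the innate immune lists, 9 of 19 inflammasome and interleukin 1 genes were higher in Kupffer-like cells (4 to 10) and 2 in MPH (1 to 2), with a median of -1.35. Over all genes 8.56% passed toward Kupffer-like cells and 13.1% toward MPH, and the count toward MPH is no larger a share than that. Il1b, the cytokine that inflammasomes mature, was at 181, 170 and 187 FPKM in MPH and at 913, 934 and 456 FPKM in Kupffer-like cells (-2.02, SE 0.38, adjusted p = 0.014). The Il1b groups were separate, and the call was kept only without MPH 3 or Kupffer 3 (up to 0.060 without MPH 2). Il1a differed by -2.42 (adjusted p = 0.044) and Il1r2, the decoy receptor, by -2.88 (0.039), each called in 1 of the 6 leave-outs. Aim2, a DNA sensor, was at 3.25, 2.74 and 2.82 FPKM against 12.8, 15.5 and 13.2 FPKM (-1.91, SE 0.16, adjusted p = 0.0016). Pycard, the adaptor ASC that links sensors to caspase 1, was at 1.32, 1.53 and 1.30 FPKM against 6.50, 5.66 and 5.35 FPKM (-1.52, SE 0.16, adjusted p = 0.0028). Aim2 and Pycard, chosen for their promoter stretches after their values were seen, kept their calls with each library left out. Nlrp6, a sensor of the same family, and Il1rap, the shared receptor chain of interleukin 1, went the other way (2.29 and 1.42, adjusted p = 0.025 and 0.0037). The Nlrp6 call was kept only without MPH 3 or Kupffer 3 (0.066 to 0.083 in the other 4 fits).

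Of 25 cytokines and chemokines, 24 passed the filter, 9 were higher in Kupffer-like cells (5 to 14) and only Igf1 was higher in MPH, with a median of -1.29. The shares over all genes were 8.56% and 13.1%. Tnf was at 32.3, 20.2 and 5.63 FPKM in MPH and at 108, 353 and 92.6 FPKM in Kupffer-like cells (-3.20, SE 0.74, adjusted p = 0.027), with Kupffer 2 the highest and no overlap. Its call was kept only without MPH 1 or Kupffer 3 (0.057 to 0.074 in the other 4 fits). Ccl4, a chemokine of macrophages and lymphocytes, was at 37.8, 37.1 and 15.9 FPKM against 184, 402 and 169 FPKM (-3.00, SE 0.48, adjusted p = 0.0091). Cxcl10, an interferon-induced chemokine, differed by -3.00 (adjusted p = 0.018; lost without Kupffer 1 or Kupffer 2, 0.063 and 0.062). Without Kupffer 3 and MPH 3 together, 15 cytokines were higher in Kupffer-like cells and 2 in MPH.

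Of the 18 Toll-like receptors and adaptors, 17 passed the filter and 4 were higher in Kupffer-like cells (1 to 9; median -0.82). Tlr2, a receptor of bacterial lipoproteins, was at 13.4, 18.0 and 10.1 FPKM in MPH and at 65.7, 55.7 and 68.1 FPKM in Kupffer-like cells (-2.14, SE 0.25, adjusted p = 0.0036). Its partners Tlr1 (-1.09) and Tlr6 (-1.0) and the kinase Irak4 (-0.82) also passed. The Tlr1 call was lost without MPH 2, that of Tlr6 without MPH 1, MPH 2 or Kupffer 2, and that of Irak4 without these or Kupffer 1. Lbp, the plasma protein that binds lipopolysaccharide, was higher in MPH (2.62, adjusted p = 0.025; lost without MPH 1, MPH 2 or Kupffer 1, 0.074 to 0.079). Without Kupffer 3 and MPH 3 together, 11 members were higher in Kupffer-like cells.

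Of 13 Fc receptors and signalling adaptors, 6 were higher in Kupffer-like cells (2 to 9; median -1.38), among them the kinases Syk (-1.46, adjusted p = 0.0086) and Btk (-1.55, 0.011). Of 18 scavenger and phagocytic receptors only Clec7a, the beta-glucan receptor dectin-1, passed (1 to 7; median -1.01), no larger a share than the 8.56% of all genes. Clec7a was at 28.8, 16.9 and 14.2 FPKM in MPH and at 80.2, 125 and 121 FPKM in Kupffer-like cells (-2.42, SE 0.33, adjusted p = 0.0057). Without Kupffer 3 and MPH 3 together, 9 of the scavenger receptors and 10 of the Fc list were higher in Kupffer-like cells.

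Of 9 tested genes of the phagocyte oxidase and reactive species, of 12 listed, 6 were higher in Kupffer-like cells (2 to 5; median -1.60). Rac2, the small GTPase of the oxidase, differed by -1.79 (adjusted p = 0.0070), and its call was kept with each library left out. Ncf4 differed by -2.03 and lost its call without Kupffer 2 (0.053), and Ncf1 by -2.0, lost without MPH 1, Kupffer 1 or Kupffer 2 (0.066 to 0.10). Class II presentation had 7 of 12 genes higher in Kupffer-like cells (1 to 8; median -2.05), and 11 without Kupffer 3 and MPH 3 together. MPH 3 was far below MPH 1 and MPH 2 for these genes, as for H2-Eb1 above. Of 24 lysosome genes, the cholesterol exporter Npc1 was higher in MPH (1.02) and the factor Tfeb in Kupffer-like cells (-0.95), both lost with any library left out. Neither share was larger than that over all genes (13.1% and 8.56%). Without Kupffer 3 and MPH 3 together, 9 lysosome genes were higher in Kupffer-like cells.

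Markers of other leukocytes moved with these lists, and their part in the results was not tested. Over all genes 8.56% passed toward Kupffer-like cells. Neutrophil markers were higher in Kupffer-like cells for 5 of 11 tested, of 12 listed (1 to 6), with sums of 122 to 309 FPKM in MPH and 908 to 2499 FPKM in Kupffer-like cells, and 10 of 11 passed without Kupffer 3 and MPH 3 together. Ly6g was listed at 0 in MPH 1. Monocyte markers were higher for 6 of 8 (3 to 5), with sums of 112.6 to 198.5 FPKM against 577 to 810.5 FPKM. B and plasma cell markers were higher for 4 of 5 tested, of 8 listed (3 to 4), with sums of 36.6 to 90.0 FPKM against 353 to 723 FPKM. T and NK cell markers were higher for 6 of 6 tested, of 9 listed (2 to 6), with sums of 1.04 to 2.77 FPKM against 32.85 to 149 FPKM. Cd3d was listed at 0 in MPH 3 and Ncr1 in all 3 MPH libraries. Among dendritic cell markers Siglech, Flt3 and Clec9a were higher, of 6 tested and 8 listed (1 to 2), with overlapping sums (87.2 to 227 FPKM against 121.5 to 204 FPKM), and Siglech and Ccr7 were listed at 0 in MPH 3. Of the 4 dendritic cell markers still tested without Kupffer 3 and MPH 3, 1 passed.

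The general macrophage markers were less separate. Of 14 pan-macrophage and myeloid markers, 3 were higher in Kupffer-like cells (1 to 7; median -1.33), namely Ptprc (-1.96, adjusted p = 0.013), Cybb (-1.56, 0.045) and Tyrobp (-1.42, 0.043). Only the Ptprc call was kept in every leave-out, while that of Cybb was kept in none (0.053 to 0.13). Without Kupffer 3 and MPH 3 together, 11 of the 14, and 7 of the 12 Kupffer cell markers, passed toward Kupffer-like cells. Of 10 markers of lipid- and scar-associated macrophages, 2 were higher (1 to 4): Lgals3 (-1.85, adjusted p = 0.012), kept in every leave-out, and Spp1 (-1.03, 0.048), kept only without Kupffer 3. With Kupffer 3 and MPH 3 both left out, 6 of these 10 passed. Endothelial markers passed for none of 12 by limma, also at an unadjusted p under 0.05 (0 of 12), and their sums overlapped (252 to 820 FPKM against 509 to 1418 FPKM).

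Markers of stellate cells gave few calls, and only 7 of 12 markers of bile duct cells passed the filter on level. Sox9, a factor of bile duct cells and of hepatocytes in injured liver, was at 4.57, 8.64 and 7.41 FPKM in MPH and at 0.381, 0.471 and 1.60 FPKM in Kupffer-like cells (2.14, SE 0.33, adjusted p = 0.0081). Of 12 biliary genes listed and 7 tested, 3 were higher in MPH (1 to 3), against 13.1% of all genes, Cdh1 also among them. Only 4 were still tested without Kupffer 3 and MPH 3 together, of which none was higher in MPH and 1 in Kupffer-like cells. Of 12 tested stellate cell and fibroblast markers, Reln (1.81, adjusted p = 0.042) and Pdgfrb (1.23, 0.021) were higher in MPH (0 to 2, and 0 in 3 of the 6 leave-outs), near the 13.1% of all genes, Reln only without MPH 3 among the leave-outs and Pdgfrb lost without MPH 1, MPH 2 or Kupffer 2 (0.061 to 0.072). Their list had sums of 339 to 512 FPKM against 201 to 421 FPKM.

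Isoenzymes that come in a hepatic and a common form were listed separately. Of 15 hepatic forms and related hepatic genes, 9 were higher in MPH (6 to 9; median 2.15) and none in Kupffer-like cells. Of 15 tested common forms, 8 were higher in Kupffer-like cells (1 to 9; median -0.90) and none in MPH. Among glucose carriers, Slc2a2, the liver form, was at 53.5, 50.7 and 24.6 FPKM in MPH and at 0.628, 4.49 and 1.31 FPKM in Kupffer-like cells (3.92, SE 0.51, adjusted p = 0.0051). Slc2a3, a leukocyte form, was at 0.979, 1.87 and 1.13 FPKM against 5.77, 6.77 and 12.3 FPKM (-1.95, SE 0.30, adjusted p = 0.0082). Mat1a, the liver enzyme of S-adenosylmethionine synthesis, differed by 3.12. Hexokinases Hk3 (-1.34) and Hk2 (-1.15) and the pyruvate kinase gene Pkm (-1.27) were higher in Kupffer-like cells, and each lost its call in 3 or more of the 6 leave-outs.

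Signals that can pass between the cell types were listed as 22 ligands and 24 receptors. Of 21 tested ligands, 7 were higher in MPH (6 to 7) and 4 in Kupffer-like cells (1 to 5), and their median of 0.64 turned to -0.02 after scaling to a common sum and to -0.42 after quantile normalization. Of the 24 receptors, 4 were higher in MPH (2 to 4) and 4 in Kupffer-like cells (1 to 3), with a median of -0.13. Over all genes 13.1% passed toward MPH and 8.56% toward Kupffer-like cells, and the receptor count toward MPH is near that share.

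Among ligands of MPH, Mst1, the macrophage-stimulating protein, was at 78.9, 64.4 and 81.3 FPKM in MPH and at 1.34, 6.24 and 3.16 FPKM in Kupffer-like cells (4.19, SE 0.40, adjusted p = 0.0020). Its receptor Mst1r was low everywhere, at 0.605, 0.515 and 0.633 FPKM against 1.09, 1.18 and 1.25 FPKM (-0.46, adjusted p = 0.089). Fgl1, a hepatokine, differed by 4.80, Igf1 by 2.15 and Gdf15 by 1.63 (adjusted p = 0.031). The Gdf15 call was kept only without MPH 3. C3, given above, was higher in MPH, and its receptor C3ar1 did not pass (-1.14, adjusted p = 0.10).

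Among ligands of Kupffer-like cells, Osm, oncostatin M, was at 4.59, 3.87 and 4.59 FPKM in MPH and at 18.5, 16.4 and 37.2 FPKM in Kupffer-like cells (-2.13, SE 0.32, adjusted p = 0.0074). Its receptor Osmr was at 2.25, 4.37 and 5.57 FPKM against 4.36, 4.18 and 1.5 FPKM, with overlapping groups (0.24, adjusted p = 0.69). Il1b and Tnf are given above, and Ccl2, which recruits monocytes, differed by -1.77 (adjusted p = 0.029; kept only without Kupffer 3). Il6 (-1.0, adjusted p = 0.22) and Tgfb1 (-1.13, 0.087) did not pass.

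Among receptors, Met, which binds hepatocyte growth factor, was at 12.7, 8.76 and 9.54 FPKM in MPH and at 0.653, 2.50 and 2.43 FPKM in Kupffer-like cells (2.05, SE 0.33, adjusted p = 0.0095). Its ligand Hgf was at 11.3, 27.9 and 20.5 FPKM against 35.9, 10.6 and 3.66 FPKM, with wide overlap (0.65, adjusted p = 0.56). Egfr differed by 3.49 (adjusted p = 0.017; lost without MPH 2 or Kupffer 1), Fgfr4 by 3.19 and Ghr, the growth hormone receptor, by 2.29 (kept only without MPH 3 or Kupffer 3). On the other side were the chemokine receptors Ccr2 (-2.10, adjusted p = 0.048) and Cxcr2 (-2.05, 0.024), C5ar1 (-1.68, 0.0038) and the tumour necrosis factor receptor Tnfrsf1b (-1.01, 0.046). The Tnfrsf1b call was lost with each library left out, and of these 4 only C5ar1 kept its call in every leave-out. Tnfrsf1a (-0.04, adjusted p = 0.95), Il6st (0.32, 0.40) and Il6ra (-0.22, 0.54) had overlapping groups.

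**Figure D4:**
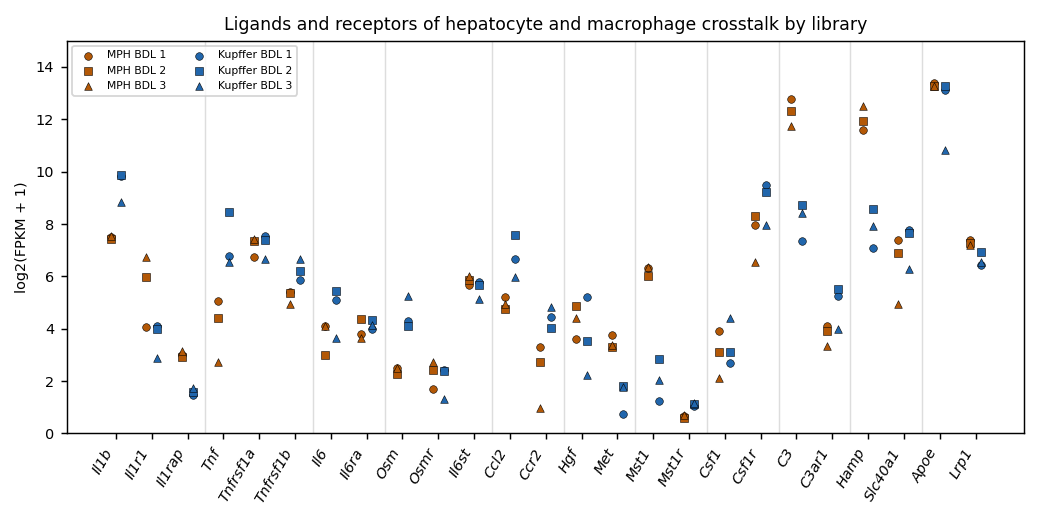
Level, log2(FPKM + 1), of 25 ligands and receptors in each library of ligated liver, with 1 point per library and colour for cell type. Mst1, C3, Hamp and Met are separate toward MPH and Osm, Il1b and Tnf toward Kupffer-like cells, while Hgf, Osmr and Tnfrsf1a overlap.

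Stress and growth lists were on the Kupffer-like side or on neither. Of 20 interferon response genes, 7 were higher in Kupffer-like cells (1 to 5; median -1.20), led by Irf1 (-2.30, adjusted p = 0.026) and Rsad2 (-1.77, 0.024), and neither call was kept in all 6 leave-outs. Of 20 tested cell cycle genes, 8 were higher in Kupffer-like cells (1 to 7; median -1.11), and 4 without Kupffer 3 and MPH 3 together. Ccnb2, cyclin B2, was at 0.416, 1.11 and 0.304 FPKM in MPH and at 2.25, 7.59 and 9.49 FPKM in Kupffer-like cells (-2.08, SE 0.46, adjusted p = 0.025), with its call lost without any MPH library or Kupffer 2 (0.053 to 0.085). Of 18 immediate early and dissociation-sensitive genes, Fosb, Nr4a1 and Hspa1b were higher in Kupffer-like cells (1 to 6), and 11 without Kupffer 3 and MPH 3 together. Hspa1b, an inducible HSP70, was at 6.03, 10.5 and 2.92 FPKM against 32.9, 30.2 and 29.1 FPKM (-2.22, SE 0.38, adjusted p = 0.011).

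Of 22 matrix genes tested, Fn1 and Pdgfa were higher in MPH (0 to 1) and Plau, Lgals3, Spp1 and Timp2 in Kupffer-like cells (2 to 5), with Fn1, fibronectin, at 260, 273 and 334 FPKM in MPH and 35.9, 55.9 and 153 FPKM in Kupffer-like cells (2.07, adjusted p = 0.037; kept only without Kupffer 3). Over all genes 13.1% and 8.56% passed on these sides, and without Kupffer 3 and MPH 3 together the matrix counts were 1 and 8. Of 20 respiratory chain genes, Ndufa4 (1.17) and Uqcrc2 (1.02) were higher in MPH (0 to 4; 5 without Kupffer 3 and MPH 3 together), with a median of 0.77 that was 0.03 after scaling to a common sum, where none passed. Of 22 cytosolic ribosomal protein genes none passed by limma as deposited, nor at an unadjusted p under 0.05 (0 of 22; median -0.20). After scaling to recovered reads 7, and after scaling to a common sum 12, were higher in Kupffer-like cells, so no direction can be given for these genes.

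The same contrast was made in sham-operated liver, to ask whether the difference between the cell types was the same with and without ligation. Of 14101 genes tested across the 12 libraries, the MPH minus Kupffer-like difference was more toward Kupffer-like cells in BDL than in Sham for 51 (0.362%) and more toward MPH for 6 (0.0426%) by limma, with 2683 genes at an unadjusted p under 0.05. With the title numbers as a replicate block, 387 (2.74%) and 82 (0.582%) passed. The total of 57 was 2 to 382 with each library left out, with 382 without Kupffer 3 and 2 without the third MPH library of sham liver.

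The rule for naming took 5 of the 51 genes, and none of the 6 toward MPH, whose group means were at most 6.26 FPKM and so under the level the rule asks. For each of them every MPH library of ligated liver was below every MPH library of sham liver. Sult5a1, a sulfotransferase, was at 17.9, 16.0 and 18.4 FPKM in MPH of sham liver and at 0.739, 0.730 and 0.822 FPKM in MPH of ligated liver. In Kupffer-like cells it was at 0.471, 0.708 and 0.224 FPKM in Sham and at 0.0659, 0.0760 and 0.254 FPKM in BDL. The difference of differences was -3.02 (SE 0.22, adjusted p = 0.00024), from 3.66 in Sham to 0.64 in BDL, and the call was kept in the 9 leave-outs in which the gene still passed the filter. Sult5a1 was at 1 FPKM or above only in MPH of sham liver, so it was not tested without any of those 3 libraries. Its call was lost with a pseudocount of 0.1, and its Kupffer-like values were all below the pseudocount of 1 used here. Dio1, the deiodinase that activates thyroid hormone, was at 98.2, 138 and 177 FPKM in MPH of sham liver and at 3.40, 3.48 and 8.80 FPKM in MPH of ligated liver, against 0.239 to 2.02 FPKM in all Kupffer-like libraries. The difference between the cell types was 5.95 in Sham and 2.00 in BDL (-3.95, SE 0.51, adjusted p = 0.019), a call kept in 7 of 12 leave-outs.

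Slc22a7, an organic anion carrier, was at 16.8, 12.2 and 45.2 FPKM in MPH of sham liver and at 1.18, 0.576 and 0.621 FPKM in MPH of ligated liver (-3.64, SE 0.54, adjusted p = 0.030). Its call was kept in 4 of 12 leave-outs. Mup11, of the major urinary proteins, averaged 74.0 FPKM in MPH of sham liver and 0.0510 FPKM in MPH of ligated liver, and was listed at 0 in the 3 Kupffer-like libraries of ligated liver (-5.54, SE 0.75, adjusted p = 0.023). The Mup11 call was kept in 3 of the 9 leave-outs that gave a value. Like Sult5a1, Mup11 was at 1 FPKM or above only in MPH of sham liver and passed the filter only through that group. Its other values were at most 0.283 FPKM, below the pseudocount of 1. Mup11 belongs to a family of near-identical copies, so its reads may be shared among them. Ttc39c differed in both cell types: it averaged 94.3 FPKM in MPH of sham liver and 21.9 FPKM in MPH of ligated liver, but 2.49 FPKM and 9.71 FPKM in Kupffer-like cells of sham and ligated liver (-3.52, SE 0.57, adjusted p = 0.039), a call kept in 2 of 12 leave-outs. Of list members that passed the filter in ligated liver, 2 carriers and 1 hepatic isoenzyme were among the 57. Slc22a7, itself a listed carrier, did not pass that filter and is not in this count. Other members below that filter were not counted either.

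**Figure D5:**
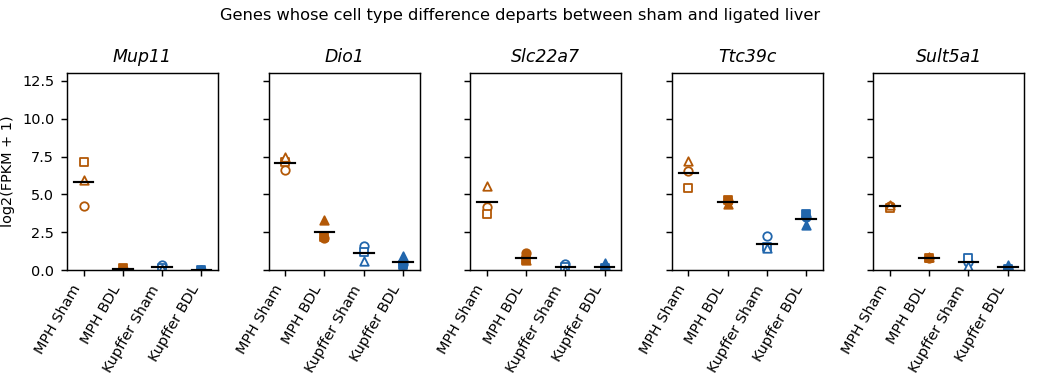
Level, log2(FPKM + 1), of the 5 named genes whose difference between cell types changed with ligation, in 4 groups of 3 libraries, with open points for sham and filled points for ligated liver and a line at each group mean. MPH is lower in ligated than in sham liver for all 5, and every Kupffer-like library lies below MPH of sham liver, with Ttc39c higher in the ligated than in the sham Kupffer-like libraries.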

How the data were processed

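Per the labels' protocols, TRIzol was used for RNA extraction, and the VAHTS Universal V6 kit turned poly(A) RNA into sequencing libraries. CASAVA 1.8, fastp, HISAT2 2.0.5, featureCounts 1.5.0-p3 and DESeq2 1.20.0 are named with GRCm38/mm10 in the submitters' processing notes, and whether counting used strand is not given in the labels. The deposited table holds FPKM values that the authors made per gene and library, for 54532 genes in 18 libraries of 6 groups with 3 each, and all of its columns belong to a library. For 98.8% of the 53636 genes with a length, all low values in the 18 libraries were whole reads within 0.02 reads. Values of many reads were not held to this limit and were counted as whole. Reads were recovered on this basis as an alternative.

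Values were taken as log2(FPKM + 1), so that differences of low genes are understated. Genes at 1 FPKM or above in at least 3 of the libraries compared were fitted with limma 3.58.1 and statmod 1.5.0 in R 4.3.3 (empirical Bayes with trend and robust settings). P-values were adjusted by Benjamini-Hochberg over all genes tested, and an adjusted p under 0.05 was called. The interaction with Sham was fitted over the 12 libraries of both cell types. On simulated counts for the comparison in ligated liver (12611 genes), 43% of 100 genes changed by 2-fold and 99% of 100 changed by 4-fold were recovered, with 18 false calls.

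Members, gene lists and tests were chosen with earlier results of these data known, and 48 lists held 686 members, of which 642 were tested. The text names the 12 largest differences per direction among called genes with a mean of at least 10 FPKM in the higher group and separate groups, leaving out predicted genes. It also names up to 4 called members per list and direction, members that went against their list, members of the transcription factor, crosstalk and bile acid sensing lists whether called or not (not all are printed), and up to 5 interaction genes per direction. Clec4f, Hba-a1, Cyp4a14, Cyp7a1, Apoe and the genes listed at 0 were named after their values were seen, as were the genes so marked.

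Title numbers occur in both cell types for 3 pairs of libraries, 2 in Sham and 1 in BDL. Deviations from group means correlated within each pair (0.34, 0.23 and 0.30). No such value was computed for libraries with different numbers, so these correlations cannot show that the numbers pair libraries. For the replicate block the numbers were taken to pair them, which was not tested. Results for some genes of the lists are not reported here.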

Additional observations from a re-analysis of the deposited data

Results flagged for a closer look

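The difference between MPH and Kupffer-like cells itself differed between ligated and sham liver for 57 genes by the interaction term in limma, of which the 5 with the most negative departures at a group mean of at least 10 FPKM, predicted genes left out, are given. The departure, BDL minus Sham, was -5.54 for Mup11 (SE 0.75, adjusted p = 0.023), with differences of 0.07 in BDL and 5.61 in Sham. For Dio1 it was -3.95 (SE 0.51, adjusted p = 0.019), with 2.00 and 5.95. Slc22a7 followed with -3.64 (SE 0.54, adjusted p = 0.030), from 0.62 and 4.26, and Ttc39c with -3.52 (SE 0.57, adjusted p = 0.039), from 1.13 and 4.65. Sult5a1 had -3.02 (SE 0.22, adjusted p = 0.00024), from 0.64 and 3.66. With paired title numbers as a block, the adjusted p was 0.0075 for Mup11, 0.0053 for Dio1, 0.011 for Slc22a7, 0.011 for Ttc39c and 0.00011 for Sult5a1. Of the alternatives that gave a value, 8 of 14 called Mup11, 11 of 17 Dio1, 8 of 17 Slc22a7, 6 of 17 Ttc39c and 13 of 14 Sult5a1. With a pseudocount of 0.1 the calls of Dio1, Slc22a7, Ttc39c and Sult5a1 were lost. Mup11 and Sult5a1 reached 1 FPKM only in MPH of sham liver, so they passed the filter only through the group where they are high.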

How the results depend on the processing

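The 1647 genes higher in MPH became 830 without a filter on level, 734 after scaling to a common sum, 828 after scaling to recovered reads and 2856 with all 18 libraries in 1 model. The 1072 genes higher in Kupffer-like cells became 378, 4371, 3805 and 2241 in the same order. Leaving out libraries of ligated liver gave 708 to 1801 genes toward MPH and 317 to 1330 toward Kupffer-like cells, and 1330 is the count without Kupffer 3 and MPH 3 together, a setting chosen after seeing the data, as was sex as a covariate (1510 and 1173). Other settings stayed within 1.5 times: a pseudocount of 0.1 (1588 and 1016) or 0.01 (1551 and 952), at least 5 FPKM (1378 and 773), quantile normalization (1380 and 1474), eBayes without trend and robust settings (1681 and 1104) and voom on recovered reads (1657 and 1019).

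The 57 interaction genes became 11 with a pseudocount of 0.1, 12 after scaling to recovered reads, 24 after quantile normalization and 2 to 382 with a library left out. With the replicate block on paired title numbers, 469 passed. No paired analysis was possible for the comparison in ligated liver because its groups share 1 number and so form 1 pair.

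Of 225 genes named by the rule, 187 were called, 95 of them with each of the 6 libraries left out, and none changed sign with its call over 18 alternatives. List medians changed sign under some setting for 7 of 48 lists: the crosstalk ligands (to -0.42 and -0.02 after quantile and common-sum scaling), the crosstalk receptors (0.13 without Kupffer 1), iron genes (0.04 and 0.06 without Kupffer 1 or 2), matrix genes (to about 0 without Kupffer 2), biliary markers (-0.19 at 5 FPKM, -0.13 without Kupffer 3 and MPH 3 together), dendritic cell markers (0.34 at 5 FPKM) and sex-linked genes. The cause of these shifts was not tested. With 3 libraries a side, the simulation recovered 43% of changes of 2-fold, although none of its libraries stood apart as Kupffer 3 and MPH 3 do. A missing call therefore does not show that levels were equal.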

Other observations

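Red cell genes spread widely between libraries, and few passed the test. Of 8 erythroid and platelet markers, only the globin Hba-a2 passed toward Kupffer-like cells by limma, while 5 had separate groups and an unadjusted p under 0.05. Over all 12525 genes, 8.56% passed and 20.1% had separate groups toward Kupffer-like cells, so the called share is near that of all genes. An unadjusted p under 0.05 by limma was reached by 4792 of all genes, in either direction. Their sums were 210, 252 and 93.7 FPKM in MPH 1 to 3 and 3538, 611 and 24484 FPKM in Kupffer 1 to 3. Hbb-bs, a beta globin, was at 92.8, 118 and 0.485 FPKM in MPH and at 1560, 254 and 10186 FPKM in Kupffer-like cells (-5.97, SE 2.00, adjusted p = 0.077). Alas2, the first enzyme of heme synthesis in red cell precursors, was at 3.45, 3.19 and 0.775 FPKM against 24.6, 4.86 and 251 FPKM (-3.39, adjusted p = 0.10). The platelet chemokine Pf4 did not follow the globins: it was highest in MPH 3, at 86.7 FPKM, against 12.2 to 49.6 FPKM in Kupffer-like cells (-0.07, adjusted p = 0.96).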
